A study of Mus musculus with 12 samples.

Results

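Heat shock proteins and their partner chaperones were followed in 12 RNA-seq libraries of primary mouse embryonic fibroblasts. The genes were taken by name, as every row beginning with HSP, DNAJ, CCT followed by a number from 2 to 8, or BAG followed by a digit, which gave 73 of 11481 genes. Of these, 72 were in the table of mock-treated cells, 71 in that of doxorubicin-treated cells and 70 in both. Dnajc12 and Hspa12b were in the mock table only and Hspa1a in the doxorubicin table only. The fibroblasts were primary cultures on a hybrid 129/B6 background, either lincRNA-p21+/+ (WT) or lincRNA-p21-/- (KO), and lincRNA-p21 is a long noncoding RNA induced by p53. Each genotype was mock treated or received doxorubicin, a DNA-damaging anthracycline, with 3 libraries in each of the 4 groups. The labels give a dose of 0.5 mM for 24 hours, and that unit is in doubt. The labels do not say whether replicates came from separate embryos, so p-values measure the spread between these libraries, which may be technical.

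Chaperones bind unfolded or partly folded proteins and, in most families, use ATP to release them in a state that can fold. HSP70 proteins work with J-domain partners (DNAJA, DNAJB and DNAJC), which deliver clients and stimulate ATP hydrolysis, and with exchange factors such as the BAG proteins and HSP110, which eject ADP. HSP90 acts later, on kinases and steroid receptors among others, the chaperonins enclose a client in a chamber, and small heat shock proteins hold clients without ATP. Heat shock factor 1 (HSF1) binds heat shock elements in the promoters of the inducible members, and those of the endoplasmic reticulum (ER) are regulated by the unfolded protein response. By these roles, assigned from gene names, the 73 genes comprised 3 HSP90 genes, 13 of HSP70 and HSP110, 13 of DNAJA and DNAJB, 23 of DNAJC, 6 exchange factors and 9 chaperonin genes. A further 4 bear small heat shock protein names (Hspb1, Hspb6, Hspb8 and Hspb11), and whether Hspb11 acts as one was not examined. The other 2 were set apart as carrying the name without being chaperones. The last are Hspg2, which encodes the matrix proteoglycan perlecan, and Hspbap1, which encodes a protein that binds a small heat shock protein.

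The promoter windows of all members that had one were searched for the elements named above, and 6 windows are shown because their genes recur in the results. The windows came from RefSeq on GRCm38.p6, matched by symbol for 60 of the 73 genes, and run from 250 bases before to 50 bases after a start. The choice of these 6 was made after expression values had been seen, and only windows with a match are shown. Capitals mark matches on either strand. In Hsph1, Dnajb6 and Hspd1 these are heat shock elements of 3 units, GAA and TTC in alternation with 2 bases of any kind between units. In Hspa1b the element has 2 such units, and in Hspa5 and Hsp90b1 the match is the ER stress response element, CCAAT followed after 9 bases of any kind by CCACG.
Hsph1 (chr5:149636287-149636586, minus strand): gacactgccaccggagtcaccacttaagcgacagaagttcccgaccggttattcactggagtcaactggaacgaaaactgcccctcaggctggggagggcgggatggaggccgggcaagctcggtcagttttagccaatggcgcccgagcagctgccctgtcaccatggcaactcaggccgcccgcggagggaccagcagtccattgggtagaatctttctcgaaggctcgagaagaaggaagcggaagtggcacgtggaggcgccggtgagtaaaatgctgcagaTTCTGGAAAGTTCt
Dnajb6 (chr5:29735648-29735947, plus strand): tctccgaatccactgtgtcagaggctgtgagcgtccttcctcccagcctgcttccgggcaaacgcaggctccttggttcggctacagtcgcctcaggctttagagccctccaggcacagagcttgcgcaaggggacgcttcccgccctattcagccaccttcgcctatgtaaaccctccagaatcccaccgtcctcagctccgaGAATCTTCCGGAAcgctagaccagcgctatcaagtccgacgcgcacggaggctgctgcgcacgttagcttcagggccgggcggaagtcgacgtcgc
Hspd1 (chr1:55087883-55088182, minus strand): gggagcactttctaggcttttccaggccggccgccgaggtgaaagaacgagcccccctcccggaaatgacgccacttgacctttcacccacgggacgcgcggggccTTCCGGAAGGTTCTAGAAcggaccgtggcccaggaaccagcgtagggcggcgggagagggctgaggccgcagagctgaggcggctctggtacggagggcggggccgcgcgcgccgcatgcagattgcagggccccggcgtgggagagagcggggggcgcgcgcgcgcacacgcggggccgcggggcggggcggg
Hspa1b (chr17:34959189-34959488, minus strand): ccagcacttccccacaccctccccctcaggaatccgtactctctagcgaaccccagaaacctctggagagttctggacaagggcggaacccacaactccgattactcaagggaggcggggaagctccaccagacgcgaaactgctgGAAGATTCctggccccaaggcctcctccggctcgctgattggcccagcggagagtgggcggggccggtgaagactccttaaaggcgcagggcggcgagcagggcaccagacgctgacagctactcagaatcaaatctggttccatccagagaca
Hspa5 (chr2:34771840-34772139, plus strand): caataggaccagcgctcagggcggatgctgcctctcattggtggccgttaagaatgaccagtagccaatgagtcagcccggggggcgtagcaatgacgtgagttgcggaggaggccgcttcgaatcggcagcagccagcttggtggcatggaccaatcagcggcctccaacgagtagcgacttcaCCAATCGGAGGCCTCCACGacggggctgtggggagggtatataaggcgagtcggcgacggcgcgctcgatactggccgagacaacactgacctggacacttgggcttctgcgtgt
Hsp90b1 (chr10:86705395-86705694, minus strand): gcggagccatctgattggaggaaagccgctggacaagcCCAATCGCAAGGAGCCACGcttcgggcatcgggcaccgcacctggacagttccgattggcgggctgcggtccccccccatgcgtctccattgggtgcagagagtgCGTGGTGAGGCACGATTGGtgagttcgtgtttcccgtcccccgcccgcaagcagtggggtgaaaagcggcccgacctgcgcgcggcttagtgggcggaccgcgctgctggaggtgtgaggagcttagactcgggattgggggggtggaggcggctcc

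The 3-unit element was in 6 of 79 member windows (7.60%), belonging to 4 genes, and in 198 of 32851 windows of all genes (0.603%). Hspe1 was the fourth gene, and its window overlaps that of Hspd1, since the pair is divergently transcribed. The Dnajb6 windows also overlap each other, as do the Hsph1 windows, so the 6 windows are not separate sequences. In Hsph1 the match lies after the start. The 2-unit element, which every 3-unit match also contains, was in 20 member windows (25.3%) and 15.1% of all windows. The ER element was in 3 member windows (3.80%), those of Hspa5, Hsp90b1 and Dnajc3, and 0.119% of all. The windows of Dnajb9, Hspa2, Dnajc9 and Dnajb1, genes with the largest rises described below, held no match to any of these elements. A match describes letters in a window, and binding was not measured.

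Library totals ran from 14327048 to 20511907 reads, and the values were deposited as CPM, reads scaled to a common library total. The tables list only genes that exceeded 2 CPM in each of the WT libraries, so a gene expressed in KO and low in WT was not analysed here. LincRNA-p21 itself was not analysed here either, so its level offers no check of the genotypes. Fibroblast markers were abundant, with 10 of 11 measured and a summed level of 55355 to 64275 CPM in WT mock. In bulk RNA, fewer cells of a type and less RNA per cell cannot be told apart. The chaperone-named genes summed to 1.45 to 1.83% of each library, and the libraries numbered 2 had the highest sum in all 4 groups.

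Levels differed widely within the family. In WT mock cells, per kb of exon, Hsp90ab1 (constitutive cytosolic HSP90) was highest at 897 ± 78.0 CPM per kb (SD, n = 3), followed by Hsp90b1 (the ER form) at 586 ± 62.2. Hspa5 (the ER HSP70, BiP) stood at 348 ± 23.8, Hspa9 (the mitochondrial HSP70) at 317 ± 26.9 and Hspa8 (the constitutive cytosolic HSP70) at 309 ± 60.7 CPM per kb. Hspa5 lay above Hspa9 by more than the SD of either, and Hspa8 lay within its own SD of both. In Hspa8, 51.4% of the 50-base stretches occur in other annotated genes, so its reads may be split. Cct2 and Cct5, subunits of the cytosolic chaperonin, followed at 223 ± 16.9 and 208 ± 17.9 CPM per kb. By median the roles were ordered HSP90 (586 CPM per kb), chaperonins (136), genes with small heat shock protein names (36.0), exchange factors (30.2), HSP70 and HSP110 (20.2), DNAJA and DNAJB (19.8) and DNAJC (8.06). Hsp90ab1, Hsp90b1, Hspa5 and Hspa9 together held 37.3 to 42.2% of the members' CPM in a mock library and 30.8 to 36.1% in a doxorubicin library. The members' CPM include Hspg2, which is not a chaperone, at 1731 ± 654 CPM in WT mock.

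**Figure D1:**
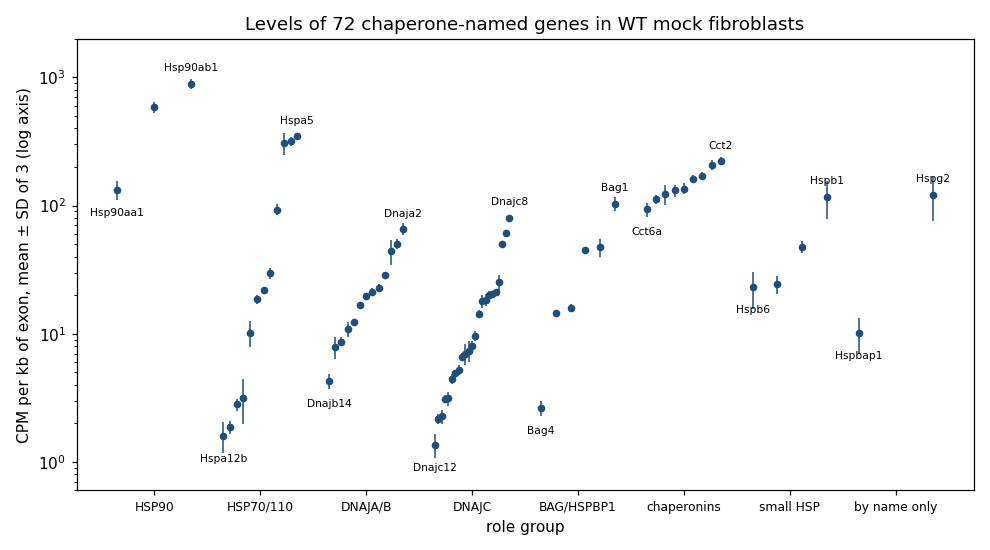
Level of each of the 72 genes of the mock table in WT mock libraries, in CPM per kb of exon on a log axis, by role group, with the highest and lowest gene of each group named. Points are means and bars SD of 3 libraries; the HSP90 genes run from 132 to 897 CPM per kb and the DNAJC genes from 1.36 to 80.2.

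After doxorubicin the chaperone genes of WT cells changed in both directions, and a smaller share of them changed than of all genes. The largest rises were those of Dnajb9, Hspa2, Dnajc9, Hspa1b and Dnajb1, and the largest falls those of Bag2 and Hspa9. Hsp90ab1, Hsp90b1 and Hspa5 had no called change in either genotype without the replicate block. With limma on log2(CPM + 1) and Benjamini-Hochberg adjustment at 0.05, 24 of the 70 genes passed, a share of 34.3% against a background of 47.3% of all 10292 genes. They were 16 higher and 8 lower (backgrounds 25.9% and 21.4%). In KO cells 16 of 70 passed (22.9%, background 34.5%), with 10 higher and 6 lower (backgrounds 19.9% and 14.6%). The 10 genes higher in KO were all among the 16 higher in WT (62.5% of the WT list), and 4 fell in both (Bag2, Bag5, Dnajc25 and Hspa9). The same overlap over all genes was not computed, so it is not shown to be particular to these genes. Both comparisons came from 1 fit with a shared estimate of the spread. The median difference of the 70 genes was 0.057 on the log2 scale in WT, beside 0.011 over all genes, and 0.063 in KO, beside 0.035. Median centring of each library moved the median of all genes in WT from 0.011 to -0.10, and it changed the split of calls to 14 higher and 13 lower in WT (21.4% and 28.6% of all genes) and 6 higher and 8 lower in KO (16.2% and 19.7%). Quantile normalization gave 15 higher and 14 lower in WT (22.4% and 26.9%). With the replicate number as a block, 28 genes passed in KO (background 53.7%), with 17 higher and 11 lower (29.6% and 24% of all genes), and 35 in WT (background 63.7%), with 21 higher and 14 lower (33.6% and 30.1% of all genes). Groups did not overlap for 26 of 70 genes in WT (background 54.8%), 17 of them above mock and 9 below (29.4% and 25.3% of all genes). In KO this held for 25 genes (background 48.6%), 15 above and 10 below (27.1% and 21.5%). Leaving out 1 library at a time, 17 of the 24 WT calls and 8 of the 16 KO calls held every time. Those lost at least once were Cct5, Dnaja3, Dnajb11, Dnajb12, Dnajb14, Dnajc14 and Dnajc25 in WT and Bag1, Bag2, Dnajb5, Dnajc5, Dnajc10, Dnajc25, Hspa12a and Hspa1b in KO. The share of all called genes that held every time was not computed, so what was kept or lost is not a result about the chaperones. In KO 10 genes passed without doxorubicin replicate 3 (background 24.7%), and 10 without either replicate 1 or replicate 3 of the mock cells (27.1% and 28.9%). The counts by role below stand beside the same shares of all genes. Without the block 25.9% rose and 21.4% fell in WT, and 19.9% rose and 14.6% fell in KO. For counts by role with the block, 33.6% rose and 30.1% fell in WT, and 29.6% rose and 24% fell in KO.

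Of the HSP90 genes, none of the 3 passed in WT or KO without the block. Hsp90aa1, the inducible cytosolic form, had 381, 529 and 432 CPM in WT mock and 439, 592 and 401 CPM in WT doxorubicin, in replicate order, and the groups overlapped. Its log2 difference was 0.085 (SE 0.20, adjusted p = 0.745) in WT and 0.0028 (adjusted p = 0.993) in KO, and 58.5% of its 50-base stretches occur in other annotated genes, so its reads may be split. Hsp90ab1 in WT averaged 2260.0 ± 197 CPM before and 2141 ± 117 CPM after doxorubicin, and in KO 2576 ± 447 and 2386 ± 350.1 CPM. Quantile normalization turned its log2 difference from -0.076 to 0.26 in WT and from -0.11 to 0.23 in KO. These values were not called without the block (adjusted p = 0.201 and 0.280), while with the block and quantile normalization the WT rise was (0.0491) and the KO value was not (0.0806). Hsp90b1 had log2 differences of -0.27 in WT and -0.37 in KO, which did not pass without the block (adjusted p = 0.167 and 0.0794) and did with it (0.0328 and 0.00864). Other genes overlap 21.6% of its exons.

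Among HSP70 and HSP110 genes, Hspa1b, Hspa2, Hsph1 and Hspa14 rose in WT. Hspa1b, the stress-inducible HSP70, had 5.03, 4.71 and 5.90 CPM in WT mock and 13.8, 26.7 and 29.2 CPM after doxorubicin, so that every treated library exceeded every mock library (log2 1.90, SE 0.33, adjusted p = 0.000840). In KO it had 4.71, 4.40 and 5.36 CPM in mock and 6.59, 9.68 and 18.4 CPM after doxorubicin (log2 1.00, SE 0.33, adjusted p = 0.0359). The treated KO libraries again lay above the mock ones, the nearest by little. Hspa1a, its near-identical neighbour, was measured after doxorubicin only, and 60.4% of its 50-base stretches and 62.3% of those of Hspa1b recur elsewhere in the annotation, mostly in each other, so the division between them is uncertain. Hspa2, a testis-enriched HSP70, had 25.7, 21.4 and 33.7 CPM in WT mock and 50.1, 145 and 173 CPM after doxorubicin (log2 1.99, SE 0.49, adjusted p = 0.00679). Replicate 1 was the lowest treated library and still above all 3 mock libraries. In KO, Hspa2 went from 25.3 ± 8.51 to 60.5 ± 37.9 CPM, which passed only with the block (adjusted p = 0.110 without and 0.0137 with it).

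Hsph1, an HSP110 exchange factor whose window above holds a 3-unit heat shock element, had 118, 139.9 and 118 CPM in WT mock and 196, 232 and 164 CPM in WT doxorubicin (log2 0.64, adjusted p = 0.00374). The groups did not overlap. In KO its difference was 0.33 (adjusted p = 0.0931, and 0.00519 with the block). Hspa9, which drives protein import into mitochondria, fell in both genotypes. It had 960.4, 886 and 1049.7 CPM in WT mock and 601, 608 and 553 CPM after doxorubicin (log2 -0.71, SE 0.11, adjusted p = 0.000460), and in KO the log2 difference was -0.79 (SE 0.11, adjusted p = 0.000513). Neither pair of groups overlapped. Hspa4l, an HSP110 relative, had 0.46 in WT and was called higher with the block alone (adjusted p = 0.354 without and 0.00702 with it). Hspa12a, a distant HSP70 relative, fell in KO (log2 -0.49, adjusted p = 0.0203) and had -0.24 in WT (adjusted p = 0.194). Hspa8 and Hspa5 were not called, at 739 ± 145 and 737 ± 99.7 CPM for Hspa8 and 1305 ± 89.2 and 1239.6 ± 250.4 CPM for Hspa5 in WT mock and doxorubicin. In KO, Hspa5 was at 1404 ± 99.9 and 1161 ± 131 CPM and was lower only with the block (adjusted p = 0.0228).

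**Figure D2:**
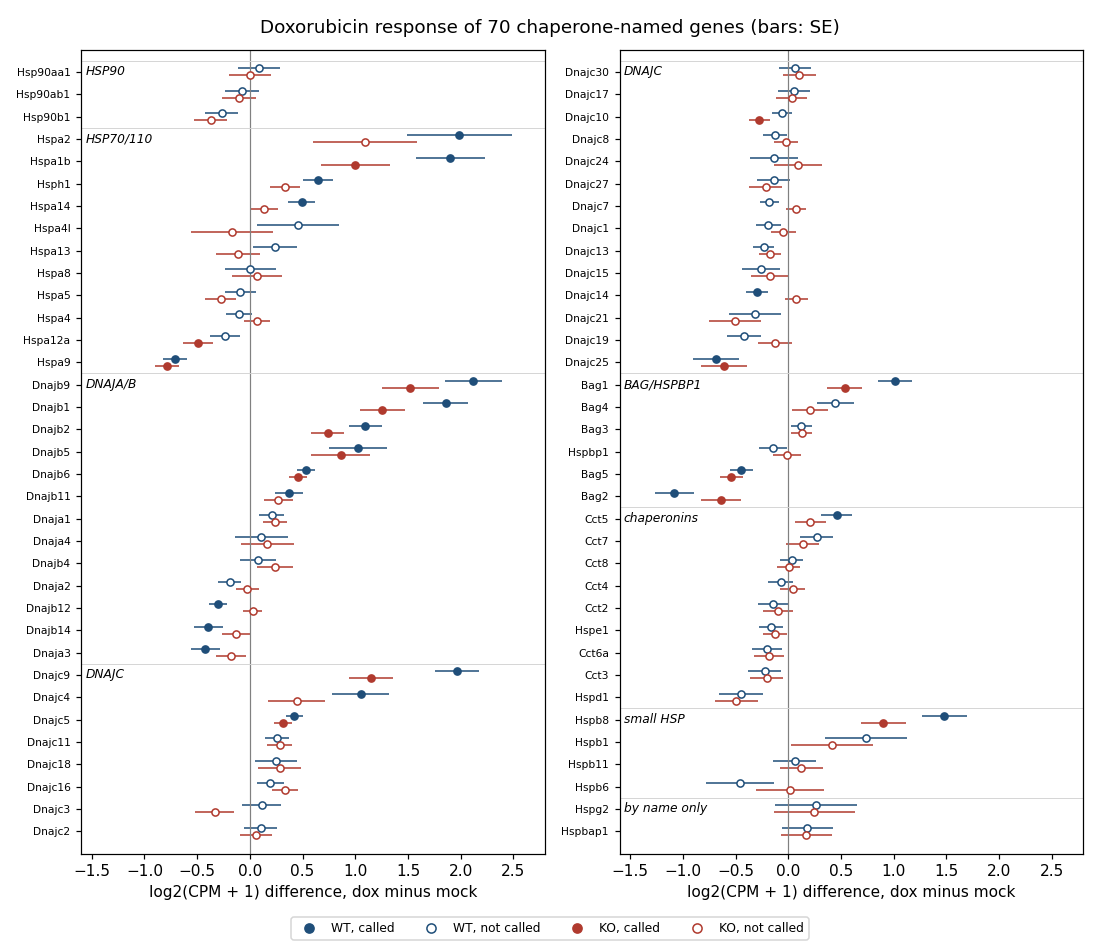
Difference between doxorubicin and mock for the 70 genes in both tables, on the log2(CPM + 1) scale, by role group, in WT (blue) and KO (red). Bars are SE of the fit, filled points passed at an adjusted p of 0.05; the values run from -1.08 for Bag2 to 2.12 for Dnajb9, both in WT.

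The DNAJA and DNAJB genes held the largest rise. In WT 6 of 13 rose and 3 fell, and in KO 5 rose and 0 fell (with the block 7 rose and 3 fell in WT, and 7 rose and 0 fell in KO). Dnajb9, an ER J-domain protein, had 30.7, 30.9 and 29.2 CPM in WT mock and 91.3, 193 and 138 CPM after doxorubicin (log2 2.12, SE 0.27, adjusted p = 0.000139). In KO it had 27.4, 28.1 and 28.9 CPM in mock and 53.8, 101 and 104 CPM after doxorubicin (log2 1.52, SE 0.27, adjusted p = 0.00176). Mock libraries were nearly level and treated ones spread widely, with replicate 1 the lowest in both genotypes. Dnajb1, the stress-inducible HSP40 of the cytosol, had 54.3, 56.9 and 50.3 CPM in WT mock and 157, 190.3 and 258 CPM in WT doxorubicin (log2 1.86, adjusted p = 7.93e-05). KO libraries had 53.5, 57.7 and 50.01 CPM in mock and 93.5, 134 and 173 CPM after doxorubicin (log2 1.26, adjusted p = 0.00137), again without overlap. Dnajb2, Dnajb5 and Dnajb6 also rose in both genotypes, by 1.10, 1.02 and 0.53 in WT and 0.74, 0.86 and 0.46 in KO on the log2 scale. Other annotated genes share 35.8% of the 50-base stretches of Dnajb6, so its reads may be split. Dnajb11, an ER partner of Hspa5, rose in WT by 0.37 (adjusted p = 0.0430), and its KO difference of 0.27 passed with the block alone (adjusted p = 0.150 without and 0.0386 with it). Dnaja1, a cytosolic HSP40, had 0.20 in WT and 0.24 in KO and passed in both with the block alone (adjusted p = 0.0164 and 0.00976). The 3 that fell in WT were Dnaja3, a mitochondrial J-domain protein (-0.42), and the ER membrane proteins Dnajb14 (-0.39) and Dnajb12 (-0.30). Dnajb14 was not lower between the WT libraries numbered 1 (log2 difference 0.055).

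Of the 22 DNAJC genes in both tables, 3 rose and 2 fell in WT, and 2 rose and 2 fell in KO. Dnajc9, a J-domain protein that also chaperones histones H3 and H4, had 26.6, 33.3 and 28.1 CPM in WT mock and 94.3, 132 and 129 CPM after doxorubicin (log2 1.97, SE 0.21, adjusted p = 4.74e-05). KO had 29.2, 46.9 and 28.8 CPM in mock and 63.1, 83.8 and 85.5 CPM after doxorubicin (log2 1.15, adjusted p = 0.00185). All treated libraries lay above all mock libraries of their genotype. Dnajc5, the cysteine string protein, rose by 0.42 in WT and 0.32 in KO, and Dnajc4 rose in WT by 1.05. In KO, Dnajc4 had 0.45, a rise that passed with the block alone (adjusted p = 0.224 without and 0.0459 with it). Dnajc25 fell in both (-0.68 and -0.61), Dnajc14 fell in WT (-0.30) and Dnajc10, an ER disulfide reductase, fell in KO (-0.27). With the block 3 rose and 4 fell in WT, and 4 rose and 4 fell in KO. The calls so added were Dnajc19 (-0.42, adjusted p = 0.00531) and Dnajc21 (-0.31, 0.0465) lower in WT, Dnajc21 (-0.50, 0.00621) and Dnajc3 (-0.33, 0.0451) lower in KO, and Dnajc16 (0.33, 0.0296) and Dnajc4 higher in KO. In WT, the libraries numbered 2 showed no fall of Dnajc21 (log2 difference 0.012).

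Of the 6 exchange factors, Bag1 rose and Bag2 and Bag5 fell in both genotypes. Bag1, which joins HSP70 to the proteasome, had 131, 161 and 128 CPM in WT mock and 234, 315 and 304 CPM after doxorubicin (log2 1.01, adjusted p = 0.000526), and its KO difference was 0.53 (adjusted p = 0.0256). Bag2, an inhibitor of the HSP70-bound ubiquitin ligase CHIP, had 78.3, 105 and 80.8 CPM in WT mock and 40.1, 41.3 and 40.7 CPM after doxorubicin (log2 -1.08, SE 0.19, adjusted p = 0.000814). In KO it had 71.9, 94.5 and 57.3 CPM in mock and 49.8, 53.3 and 37.9 CPM after doxorubicin (log2 -0.64, adjusted p = 0.0212), with replicate 3 low in both. Bag5 fell by 0.45 in WT and by 0.54 in KO on the log2 scale. Bag4 had 0.45 in WT and was called higher with the block alone (adjusted p = 0.0531 without and 0.0178 with it). Other genes overlap 21.4% of the exons of Bag4. Bag3, a textbook HSF1 target that acts in selective autophagy, did not pass, at 114 ± 4.51 CPM in WT mock and 125 ± 9.97 CPM after doxorubicin, with adjusted p = 0.328 in WT and 0.356 in KO.

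Of the 9 chaperonin genes, Cct5 alone passed without the block, in WT, at 385 ± 33.2 CPM in mock and 532 ± 64.7 CPM after doxorubicin (log2 0.46, adjusted p = 0.0242). With the block 2 rose and 2 fell in WT, and 0 rose and 1 fell in KO. Cct7 (0.27, adjusted p = 0.0142) was higher and Cct3 (-0.22, 0.0323) lower in that fit in WT. Hspd1, the mitochondrial chaperonin HSP60, was at 298 ± 53.4 and 217 ± 29.6 CPM in WT and was lower only with the block (adjusted p = 0.0952 without and 0.00279 with it in WT, 0.0874 and 0.00221 in KO). Its partner Hspe1, which shares the divergent promoter shown above, had -0.16 in WT and -0.13 in KO and did not pass. Of the 4 genes with small heat shock protein names, Hspb8, a partner of Bag3, had 87.2, 95.3 and 76.6 CPM in WT mock and 187, 229.7 and 328 CPM after doxorubicin (log2 1.48, adjusted p = 0.000278). KO libraries had 99.1, 103 and 68.3 CPM in mock and 140.3, 172 and 189.6 CPM after doxorubicin (log2 0.90, adjusted p = 0.00794). The treated libraries exceeded all mock ones. Hspb1, the inducible HSP27 family member, had 112, 164 and 85.6 CPM in WT mock and 160.4, 334 and 139 CPM after doxorubicin, where replicate 2 was highest in both and the groups overlapped (log2 0.74, adjusted p = 0.139, and 0.000299 with the block). Its KO difference of 0.41 also passed with the block alone (adjusted p = 0.441 without and 0.0123 with it), as did the fall of Hspb6, the small heat shock protein HSP20, in WT (-0.46, adjusted p = 0.259 and 0.0363). Of the 50-base stretches, 51.7% of those of Hspb1 and 44.8% of those of Hspd1 occur in other annotated genes, so their reads may be split. Hspg2 and Hspbap1 did not pass in either genotype.

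**Figure D3:**
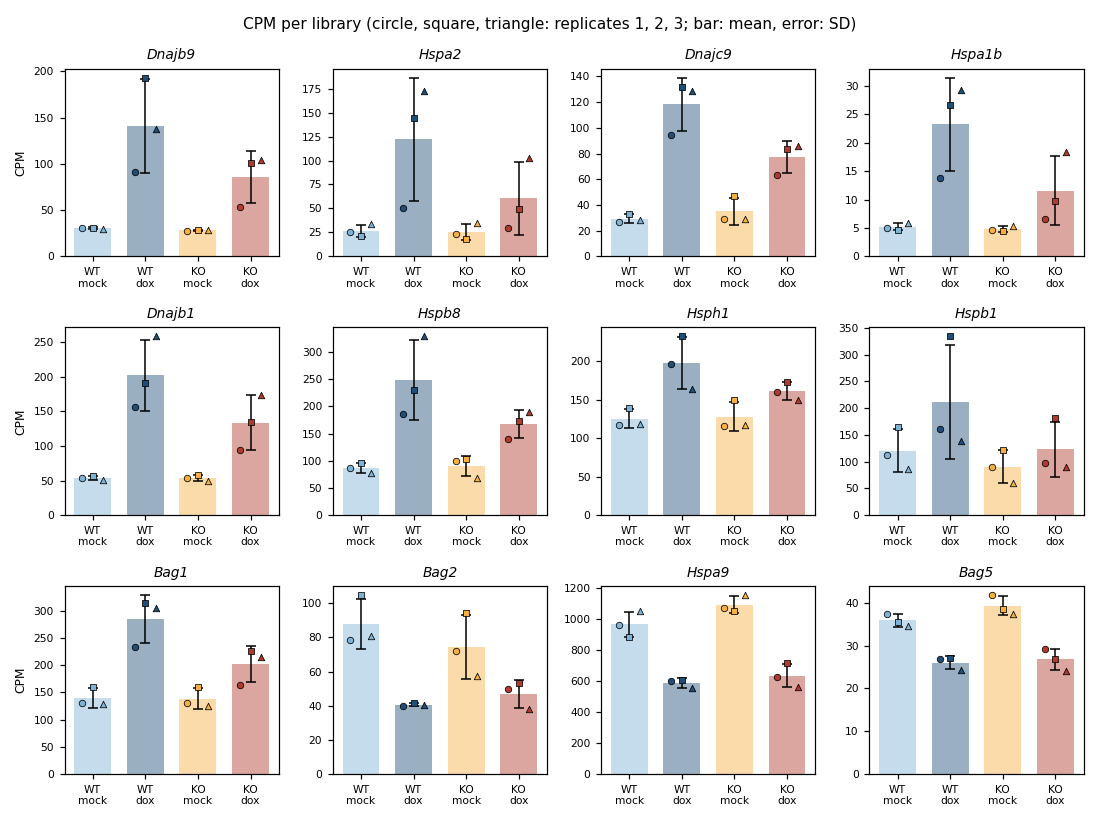
CPM in every library for 12 genes, in WT and KO, mock and doxorubicin. Symbols are libraries by replicate number, bars are means and error bars SD (n = 3); Dnajb1 rises from 53.8 to 202 CPM in WT and 53.8 to 134 CPM in KO, while Hspa9 falls from 965 to 588 CPM in WT.

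The textbook HSF1 targets did not all move. Of 12 measured in both tables, Hspa1b, Dnajb1 and Hsph1 rose in WT and Hspa1b and Dnajb1 in KO, and 0 fell, beside 25.9% of all genes that rose in WT and 19.9% in KO. With the block 6 rose and 1 fell in WT (33.6% and 30.1% of all genes), and 5 rose and 1 fell in KO (29.6% and 24%). In WT, Hsf1 itself had means of 48.9 ± 3.83 CPM without and 50.05 ± 6.20 CPM with doxorubicin (log2 0.030, adjusted p = 0.843). Of 35 other chaperone-pathway genes outside the name rule, 10 rose and 6 fell in WT (25.9% and 21.4% of all genes), and 7 rose and 4 fell in KO (19.9% and 14.6%). The small heat shock protein Cryab rose by 1.59 in WT and 1.71 in KO, Hsbp1, which binds HSF1, by 1.30 in WT and 1.21 in KO, and the HSP90 co-chaperone Fkbp5 fell by 1.40 in WT and fell by 1.53 in KO. Of 25 ER folding and unfolded protein response genes, 8 rose and 8 fell in WT, and 3 rose and 7 fell in KO, beside the same shares of all genes. With the block they were 9 and 10 in WT (33.6% and 30.1% of all genes), and 7 and 12 in KO (29.6% and 24%). Ern1, the ER stress sensor IRE1, rose by 1.83 in WT and 1.17 in KO. Ppp1r15a, a phosphatase subunit acting on eIF2, rose by 1.38 in WT and 0.88 in KO, whereas Trib3 fell by 3.78 in WT and fell by 3.65 in KO. Herpud1 fell by 1.43 in WT and fell by 1.35 in KO.

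Other cell markers moved with doxorubicin as well. The summed fibroblast markers were at 32582 to 40111 CPM in WT doxorubicin and, for KO, 47168 to 58680 in mock and 29879 to 37756 after doxorubicin. Of 12 smooth muscle and myofibroblast markers, 11 were below mock in each genotype. All 10 markers of dividing cells measured in both tables were below mock in both genotypes, with sums of 559 to 841 CPM over 13 markers in WT mock and 84.7 to 389 CPM over 10 in WT doxorubicin. Epithelial markers summed to 17.5 to 36.7 CPM over 3 markers in WT mock and 211 to 327 CPM over 4 in WT doxorubicin, and 2 of the 3 measured in both tables rose in each genotype. The blood marker Cd68, 1 of 8 listed, had a median of 8.87 CPM in WT mock and 65.8 CPM in WT doxorubicin (log2 2.84, called), and 14.9 and 63.7 CPM in KO (2.24, called with the block alone). Of the endothelial markers Kdr and Eng, both were above mock and 1 was called in each genotype, and the neural markers Tubb3 and Nes were called higher with the block alone, both in WT and 1 of them in KO. Skeletal muscle markers were below mock for 2 of 2. Markers also differed by genotype. The 13 dividing-cell markers of the mock table were all above WT in KO mock cells, 3 of them called with the block, with sums of 559 to 841 CPM in WT and 755 to 1265 CPM in KO. Of all 10648 genes, 7094 were above WT there, and 0.563% were called higher with the block. After doxorubicin 9 of 10 were below WT in KO, 6 of them called with the block (median log2 -0.76), with sums of 84.7 to 389 CPM in WT and 76.8 to 140.03 CPM in KO. All 4 epithelial markers were also below WT there, 2 of them called with the block (sums of 111 to 292 CPM in KO). Of all 11125 genes after doxorubicin, 5091 were below WT in KO, and 13.6% were called lower with the block. In mock cells 11 of 12 smooth muscle markers were below WT in KO, 3 of them called with the block. Of all genes in mock, 3554 were below WT, and 0.357% were called lower with the block. Most defining epithelial, endothelial, blood and skeletal muscle markers were not measured in these tables. The part of these shifts in the chaperone differences was not tested.

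KO against WT in mock cells gave 0 called genes of 72 (background 0%), with 1 at an unadjusted p under 0.05, beside 4.13% of all genes (Hspa12a, log2 -0.41), and 0 of 72 with the block (background 0.92%, of which 0.563% higher and 0.357% lower), where 10 (13.9%) had an unadjusted p under 0.05, beside 23.1% of all genes. Hspb1 came nearest with the block, at 112, 164 and 85.6 CPM in WT and 90.9, 122 and 60.2 CPM in KO (log2 -0.41, adjusted p = 0.0502). Each KO library was below the WT library of its number, although the groups overlapped. The groups were separate for 7 of 72 genes, beside 9.98% of all genes, with 4 above WT and 3 below (8.25% and 1.74% of all genes). With the block and without pair 3, 19 of 72 passed (26.4%), 15 higher and 4 lower, and 22.9% of all genes did (15.5% higher and 7.42% lower). A block fit without a pair has few libraries for its terms, so its calls lean on the spread shared over genes. The dividing-cell and smooth muscle markers given above moved with genotype in these libraries.

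KO against WT after doxorubicin gave 0 of 71 called without the block (background 0%), with 12 (16.9%) at an unadjusted p under 0.05, beside 11.2% of all genes. With the block 21 of 71 passed (29.6%, background 25.3%), of which 14 were lower in KO (background 13.6%) and 7 higher (background 11.8%). At an unadjusted p under 0.05 there were 30 (42.3%) with the block, beside 41.8% of all genes. The groups did not overlap for 14 genes (background 16.3%), 9 above WT and 5 below (9.7% and 6.64% of all genes). Without pair 1, 2 or 3 the count was 9, 17 and 13 of 71, beside 6.22%, 23.3% and 14% of all genes. These counts have the limit given above for a block fit without a pair. Most dividing-cell markers and the epithelial markers lay below WT in the same KO libraries, as given above, and their part was not tested. The 14 lower genes included 5 of the 13 textbook HSF1 targets, Hspa1a, Hspa1b, Hspb1, Dnajb1 and Hsph1, beside 13.6% of all genes. Called or not, 8 of the 13 targets lay below WT and 5 above. Hspa1a and Hspa1b may share reads, as given above, so they are not fully separate measurements. Hspa1b had 13.8, 26.7 and 29.2 CPM in WT and 6.59, 9.68 and 18.4 CPM in KO, and each pair was lower in KO although the groups overlapped (log2 -0.99, SE 0.16 with the block, adjusted p = 0.443 without and 0.00847 with it). Hspa1a had 7.36, 10.7 and 14.5 CPM in WT and 4.86, 4.00 and 9.51 CPM in KO (log2 -0.77, adjusted p = 0.0237 with the block). Hspa2 had -1.01 (adjusted p = 0.00843 with the block) and Hspb1, whose reads may be split, had -0.74 (0.00440). The largest of the 7 higher genes were Dnajc19, of the mitochondrial import motor, Dnajc14, Dnajc7, which binds both HSP70 and HSP90, and Dnajb14. Other genes overlap 25.5% of the exons of Dnajc14 and 12.3% of those of Dnajc7. Dnajc19 had 11.2, 8.14 and 8.07 CPM in WT and 15.6, 12.7 and 11.7 CPM in KO (log2 0.50, adjusted p = 0.0265 with the block). Dnajc14, Dnajc7 and Dnajb14 had 0.36, 0.34 and 0.33, with adjusted p = 0.0180, 0.0279 and 0.0456 in the same fit. Also lower in that fit were Dnajb9 (-0.70, adjusted p = 0.00781), Hspa12a (-0.67, 0.0138), Dnajb1 (-0.60, 0.00542), Dnajc9 (-0.60, 0.00489) and Dnajc4 (-0.55, 0.0207). Hspb8 (-0.54, 0.0105), Dnajc3 (-0.53, 0.0270), Bag1 (-0.50, 0.00607), Dnajb2 (-0.32, 0.0306) and Hsph1 (-0.28, 0.0393) were lower too. The remaining higher genes were Dnaja2 (0.33, 0.0423), Dnajb12 (0.30, 0.0369) and Cct4 (0.29, 0.0465).

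**Figure D4:**
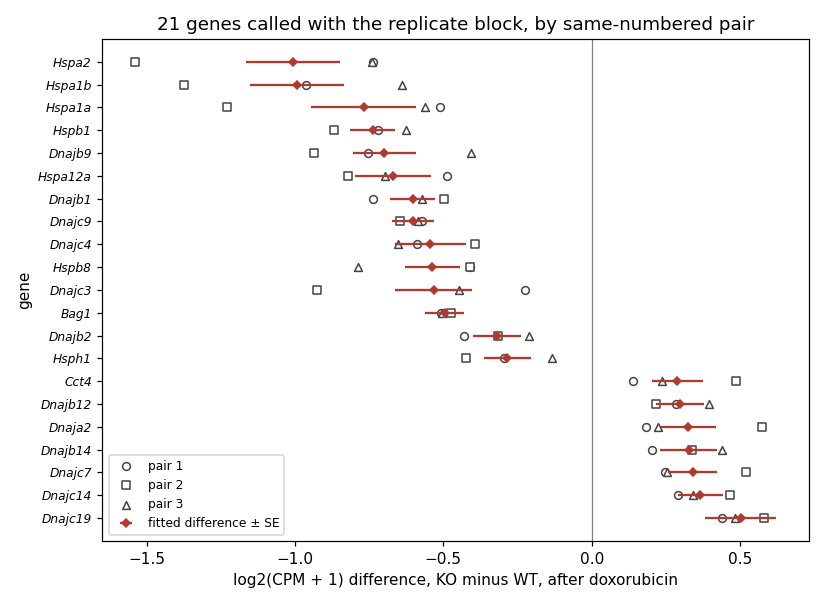
KO minus WT after doxorubicin on the log2(CPM + 1) scale for the 21 genes called with the replicate block. Open symbols are the 3 same-numbered pairs and diamonds the fitted difference with SE; the fitted values run from -1.01 for Hspa2 to 0.50 for Dnajc19, and the pairs are those that entered the fit by which the genes were chosen.

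The interaction, the doxorubicin difference in KO minus that in WT, had 0 of 70 genes called with limma (background 0%) and 0 with the block (background 0%). At an unadjusted p under 0.05 there were 3 genes (4.29%) without the block and 13 (18.6%) with it, beside 4.55% and 15.6% of all genes. The smallest adjusted p among the 70 was 0.922, or 0.196 under the block. The 3 genes, named after their values were seen, were Dnajc9 (log2 -0.82, SE 0.29), Dnajc14 (0.37, SE 0.15) and Dnajb12 (0.33, SE 0.13). Hspa1b and Dnajb1 had -0.90 (SE 0.47) and -0.60 (SE 0.30). A difference between the genotypes in how doxorubicin changed these genes was therefore not detected with 3 libraries a group. The KO against WT values after doxorubicin share their WT libraries with the WT response, so these values are not independent.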

How the data were processed

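Libraries were made with a strand-specific mRNA kit, per the labels' protocols. Tools listed in the submitters' processing notes are TopHat2 2.0.6, HTSeq and edgeR, with NCBIM37 as the assembly, and the role of each is not given in the sources used here. What the authors deposited was CPM, in 2 tables (10648 genes for mock, 11125 for doxorubicin) of 6 libraries each. Library totals were read from the step between CPM values and describe depth only. Tests used limma 3.58.1 in R 4.3.3 (lmFit, eBayes with trend) and took log2(CPM + 1) as input; p-values were adjusted by Benjamini-Hochberg over all genes of a fit, at a threshold of 0.05. On this scale the change of a low gene is understated. Genotypes were compared inside 1 table, with 6 libraries. The doxorubicin differences and the interaction were fitted on all 12 libraries over 10292 shared genes. The fit was tested on simulated data without a replicate effect, so that test does not cover the correlation between same-numbered libraries given below.

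Replicate numbers recur across groups. Deviations from group means of same-numbered libraries correlated at 0.710 to 0.855 between WT and KO in mock, 0.669 to 0.800 after doxorubicin, and 0.394 to 0.728 across treatments, all over the 0.1 set for pairing. The pairing therefore comes from the data and the shared numbers, whose meaning the labels leave unstated. A fit with the number as a block is given beside the genes and counts whose call it changes.

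Named genes were the 6 largest called differences each way without the block, the 4 largest with it for genotype and interaction, the listed HSF1 and ER genes, and the 3 highest by level. Genes whose call the block changes were also named, after their values were seen. Members and lists were chosen with earlier results of these data known. Exon lengths and shared 50-base stretches came from a GRCm38 annotation matched by symbol. Alternatives were pseudocounts of 0.5 and 5, a mean of at least 10 CPM, quantile normalization, median centring, the block, and leaving out libraries.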

Additional observations from a re-analysis of the deposited data

How the results depend on the processing

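The count of called genes stayed within 1.5 times the reported one under pseudocounts of 0.5 and 5, a mean of at least 10 CPM, quantile normalization and median centring, each without the block. With the replicate block it became 21 for KO against WT after doxorubicin (from 0), 28 for doxorubicin in KO (from 16) and 35 in WT (from 24), and stayed 0 for KO against WT in mock and the interaction. With the block and quantile normalization it became 1 for KO against WT in mock, 19 after doxorubicin, 42 for doxorubicin in WT and 26 in KO. The share of all genes called in that fit is not given here, so these counts are not a result about the chaperone genes. With the block and pairs 1, 2 or 3 left out the count of called genes was 9, 17 and 13 for KO against WT after doxorubicin. It was 19 in mock without pair 3. Leaving out 1 library gave 0 for both genotype comparisons and the interaction. It gave 18 to 25 for doxorubicin in WT and 10 to 20 in KO, counts given here without the shares of all genes. The median log2 difference then ranged from 0.0096 to 0.087 for KO against WT in mock, -0.025 to 0.081 after doxorubicin, -0.046 to 0.086 for doxorubicin in WT, -0.0075 to 0.093 in KO and -0.099 to 0.018 for the interaction, and the last was 0.020 with the block and pair 1 left out. Quantile normalization, with or without the block, moved it to 0.018 for KO against WT in mock, and median centring to -0.0014 there, -0.054 for doxorubicin in WT and -0.022 in KO. Of 74 differences of named genes, with 1482 values under alternatives, 1300 kept direction and call, 56 lost the call, 63 gained it and 63 changed sign. The sign changes fell on 18 differences, and 0 of them started from a called gene. Where leaving out 1 library changed the sign, the log2 ranges over libraries left out are given. For KO against WT in mock the ranges were Hsph1 -0.094 to 0.11, Hsp90aa1 -0.13 to 0.17, Dnajb1 -0.054 to 0.047, Hsp90b1 -0.088 to 0.089. For KO against WT after doxorubicin the ranges were Hsp90aa1 -0.19 to 0.13, Hspa5 -0.18 to 0.077, Hsp90b1 -0.20 to 0.054. For doxorubicin in WT the ranges were Hsp90aa1 -0.080 to 0.21, Hspa5 -0.25 to 0.013. For doxorubicin in KO the ranges were Hsp90aa1 -0.15 to 0.17, Hsp90ab1 -0.23 to 0.019. For the interaction the ranges were Hspb1 -0.65 to 0.060, Hsp90aa1 -0.23 to 0.085, Bag3 -0.093 to 0.052, Hsp90b1 -0.21 to 0.050, Hsp90ab1 -0.16 to 0.095. With the block and a pair left out, sign changes were for KO against WT in mock Hsph1 -0.013 without pair 2, Dnajb1 0.0054 without pair 1, Dnajb1 0.00024 without pair 3, Hsp90b1 -0.0026 without pair 2, Hsp90b1 -0.040 without pair 3, and for KO against WT after doxorubicin Hsp90b1 0.044 without pair 2, and for doxorubicin in WT Hspa5 0.011 without pair 1, and for doxorubicin in KO Hsp90aa1 -0.021 without pair 1, and for the interaction Bag3 -0.10 without pair 3, Hsp90b1 0.047 without pair 2, Hsp90ab1 0.026 without pair 1. Other sign changes were, under quantile normalization Hsph1 -0.028 for KO against WT in mock, Bag3 -0.021 for doxorubicin in WT, Hsp90ab1 0.26 for doxorubicin in WT, Hsp90ab1 0.23 for doxorubicin in KO, and under median centring Hsph1 -0.037 for KO against WT in mock, Hsp90aa1 -0.019 for KO against WT in mock, Hsp90b1 -0.058 for KO against WT in mock, Hsp90aa1 -0.026 for doxorubicin in WT, Hsp90aa1 -0.082 for doxorubicin in KO, with the same quantile-normalized values under the block. The Hsp90ab1 value of 0.26 for doxorubicin in WT was called there (adjusted p = 0.0491), opposite to its reported sign; no other value that changed sign was called. The cause was not tested. The interaction differences of Dnajc9, Dnajb12 and Dnajc14 were added after seeing the data. A planned edgeR quasi-likelihood test was not run and CPM was kept as the unit, although 100% of values were whole reads, within 0.001 of a read, by the step that gave the library totals. With 3 libraries a group, a p that misses the threshold does not show that values did not differ. Where 1 library was left out, its group kept 2 and the fit pooled the spread over groups.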
